A study of Mus musculus with 2 samples.

Results

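Phb2, Ptov1, Ctbp1 and Csnk1g2 are 4 genes of the adrenal gland whose most frequent transcript model joined annotated exons in a combination that no annotated transcript carries. Long reads cover whole transcripts, so each read shows which splice choices occur together on 1 molecule. The deposited tables place every read in a transcript model, and models with a new combination of annotated splice sites are set apart from known ones and from those with a new splice site. The genes were taken by name from both quantification tables, and their models were compared with the annotated transcripts intron by intron. The 4 genes were chosen by the reads of their models in these same libraries. They are 4 of 60 genes led by a new model, which are 2.46% of the 2440 genes with at least 50 complete reads in each library, and 18053 known genes had any read. A complete read here is one assigned to a known model, a new combination or a model with a new splice site. Incomplete splice matches, which cover a stretch of a transcript, and unspliced or genomic reads were left out of shares. The leading model of a gene is the one with the most complete reads over both libraries.

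The tissue was the whole adrenal gland of untreated male B6CASTF1/J mice 4 days old, the offspring of a cross of C57BL/6J with CAST/EiJ. There was 1 group of 2 libraries, biological replicates 1 and 2, and no other condition. By its tissue label replicate 1 came from male 03 and replicate 2 from male 04, whereas the library labels give male 03 for both, with 1 donor identifier. All tests therefore compare the reads of 2 libraries, whose spread may be partly technical.

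Replicate 1 held 688260 reads on mouse genes and replicate 2 held 810645, so that 1 read equals 1.45 and 1.23 CPM, the reads scaled to the mouse reads of the library. All 6 cortex markers searched (such as Cyp11a1 and Star) and all 6 medulla markers (such as Th and Chga) had reads, summing to 45805 and 31233 CPM for cortex and 12504 and 9293 CPM for medulla. For markers of liver the sums were 206 and 9802 CPM, and 6 of 6 were called higher in replicate 2 by the test of gene levels described further on. Brown fat markers summed to 1424 and 1974 CPM, those of skeletal muscle to 1174 and 1907 CPM and those of kidney to 36.3 and 6.17 CPM. The part of such tissue in the values that follow was not tested. In bulk tissue, fewer cells of a type and less RNA per cell cannot be told apart.

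Alternative splicing lets 1 gene give several messenger RNAs by including or skipping exons, by moving an exon's edge or by keeping an intron. When such choices lie far apart on a transcript, short fragments show each choice but not their combination. Phb2 encodes prohibitin 2, which forms ring complexes with its partner Phb in the inner mitochondrial membrane. Ptov1 encodes a protein with a domain that it shares with the Mediator subunit Med25, Ctbp1 encodes a corepressor of transcription, and Csnk1g2 encodes a membrane-bound casein kinase 1 that can phosphorylate the Wnt coreceptor Lrp6.

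The sequences below show the splice choice that set each leading model apart from an annotated transcript. They are from the GENCODE M21 transcripts of build GRCm38, or mm10, read 5′ to 3′ on the strand of the gene. For Phb2, the window is chr6:124716007-124716629 on the plus strand with the introns removed. Capitals mark the 6-base exon in the annotated transcript and the pair of bases joined in the leading model.
Phb2-201: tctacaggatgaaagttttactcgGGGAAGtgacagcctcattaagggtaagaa
Phb2 leading model: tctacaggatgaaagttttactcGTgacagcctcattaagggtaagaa

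For Csnk1g2, the window is chr10:80638056-80638184 on the plus strand. Capitals mark the 81-base segment that Csnk1g2-201 keeps, which begins with GT and ends with AG, and then the pair of bases joined where it was spliced out.
Csnk1g2-201: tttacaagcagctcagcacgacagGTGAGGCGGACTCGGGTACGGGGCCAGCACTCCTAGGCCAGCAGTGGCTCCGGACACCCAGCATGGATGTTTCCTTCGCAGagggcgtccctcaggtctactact
Csnk1g2 leading model: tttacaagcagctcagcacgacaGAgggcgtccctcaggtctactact

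For Ctbp1, the window is chr5:33248663-33249130 on the minus strand with the intron removed. Capitals mark the 3 bases that the upstream acceptor adds to the last exon, and the pair of bases joined when the downstream acceptor was used.
Ctbp1 leading model and Ctbp1-201: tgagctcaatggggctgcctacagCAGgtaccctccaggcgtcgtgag
Ctbp1-211: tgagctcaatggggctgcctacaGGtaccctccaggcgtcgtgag

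The other choice in Ctbp1 lies at the 5′ end, where the coding sequence opens in exon 1 or in exon 2. Capitals mark the coding bases upstream of the exon that both transcripts share, with the introns removed.
Ctbp1-201 coding start: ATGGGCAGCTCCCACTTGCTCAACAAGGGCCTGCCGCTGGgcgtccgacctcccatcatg
Ctbp1-211 coding start: ATGTCAGgcgtccgacctcccatcatg

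For Ptov1, the edges of the last intron are shown, with the intron in capitals.
Ptov1 last intron, donor side: gtggagactgGTGAGCAGCACTGTGTCCGT
Ptov1 last intron, acceptor side: CCCCTCCTCCTGCCTCCCAGgtcagctgct

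**Figure D1:**
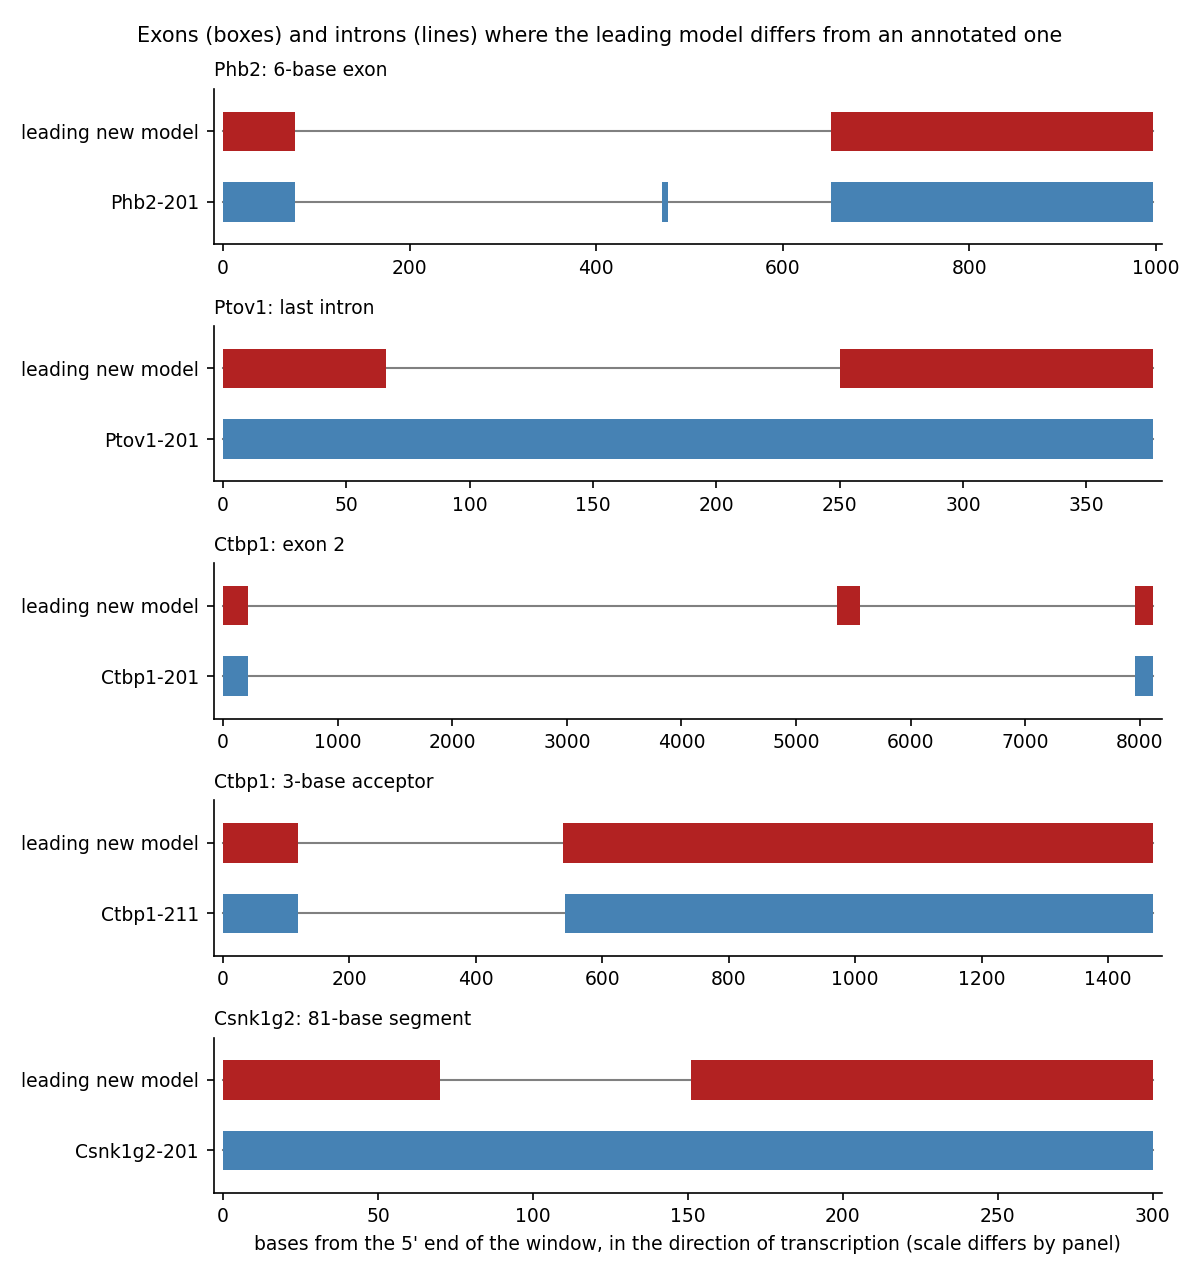
Exons (boxes) and introns (lines) in 5 windows where the leading new model (red) differs from an annotated transcript (blue), in bases from the 5′ end of each window in the direction of transcription. The Phb2 model lacks the 6-base exon, the Ptov1 model has a 184-base intron in the last exon of Ptov1-201, the Ctbp1 model has exon 2 of 193 bases and 3 more bases than Ctbp1-211 at the last acceptor, and the Csnk1g2 model splices out 81 bases.

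Every intron of the 4 leading models is annotated in at least 1 transcript of the same gene, and only the combination is new. Of the 60 genes led by a new model, 35 had this property and 25 used at least 1 intron that is not annotated. Counting introns found in only 1 of them, the leading model and its nearest annotated transcript differed by 3 in Phb2, 2 in Ctbp1 and 1 in each of Ptov1 and Csnk1g2. In Phb2 these were 1 intron of the leading model and 2 of Phb2-201. In Ctbp1 they were 1 of the leading model and 1 of Ctbp1-211. New models made up 100% and 99.7% of the complete reads of Phb2 in replicates 1 and 2, 84.8% and 89.9% of those of Csnk1g2, 75.7% and 76.1% of those of Ctbp1, and 67.1% and 68.2% of those of Ptov1. Over all known genes that share was 9.84% and 10.1%. Since these reads chose the genes, the shares are a description.

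Gene levels come first. Ptov1 had 506 and 512 reads in replicates 1 and 2, or 735 and 632 CPM (mean 683 ± 73.3, SD, n = 2). Ctbp1 had 360 and 364 reads, or 523 and 449 CPM (486 ± 52.3). Phb2 had 263 and 323 reads, or 382 and 398 CPM (390 ± 11.5). Csnk1g2 had 198 and 189 reads, or 288 and 233 CPM (260 ± 38.6). In each library Ptov1 was highest, then Ctbp1, Phb2 and Csnk1g2, and the values of neighbours in this order did not overlap. Long reads are counted per transcript and not per fragment, so these levels were not divided by length.

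The log2 ratio of replicate 2 to replicate 1, with 0.5 CPM added, was 0.06 for Phb2, -0.22 for Ptov1, -0.22 for Ctbp1 and -0.30 for Csnk1g2. Reads of a gene were set against all other mouse reads in a two-sided Fisher's exact test, which gave Benjamini-Hochberg adjusted p = 0.880, 0.127, 0.232 and 0.235 in that order. A call asked for an adjusted p below 0.05 with a log2 ratio of 1 or more in either direction, and 0 of the 4 genes met it, where 3.23% of the 8276 genes tested did, 2.26% higher in replicate 2 and 0.967% lower. At an unadjusted p under 0.05 without the fold, Ptov1 (p = 0.0154), Ctbp1 (p = 0.0403) and Csnk1g2 (p = 0.0412) passed the same exact test. The share of the 8276 genes that passed this looser threshold is not given here, so it sets these genes apart from no background. The median log2 ratio over all genes tested was -0.10.

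The leading model held most complete reads of its gene in each library for all 4 genes. The Phb2 model held 247 of 254 complete reads in replicate 1, or 97.2% (95% Wilson interval 94.4% to 98.7%), and 283 of 301 in replicate 2, or 94.0% (90.8% to 96.2%). The Csnk1g2 model held 129 of 164, or 78.7% (71.8% to 84.2%), and 121 of 159, or 76.1% (68.9% to 82.1%). The Ctbp1 model held 222 of 345, or 64.3% (59.2% to 69.2%), and 234 of 343, or 68.2% (63.1% to 72.9%).

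The Ptov1 model held 249 of 465, or 53.5% (49.0% to 58.0%), and 232 of 450, or 51.6% (46.9% to 56.1%). Thus the Phb2 model was assigned nearly all complete reads of its gene, while the Ptov1 model had little more than the sum of its competitors. From replicate 1 to replicate 2 the share changed by -3.22 points in Phb2, -1.99 in Ptov1, 3.87 in Ctbp1 and -2.56 in Csnk1g2. The two-sided Fisher's exact test over 2440 genes gave adjusted p = 0.824 for Phb2 and 1 for each of the others, so 0 of the 4 genes were called, where 0.41% of all genes were. A call asked for an adjusted p below 0.05 and at least 10 points. The intervals hold counting error alone, because reads that carry no molecular identifier may repeat 1 molecule.

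**Figure D2:**
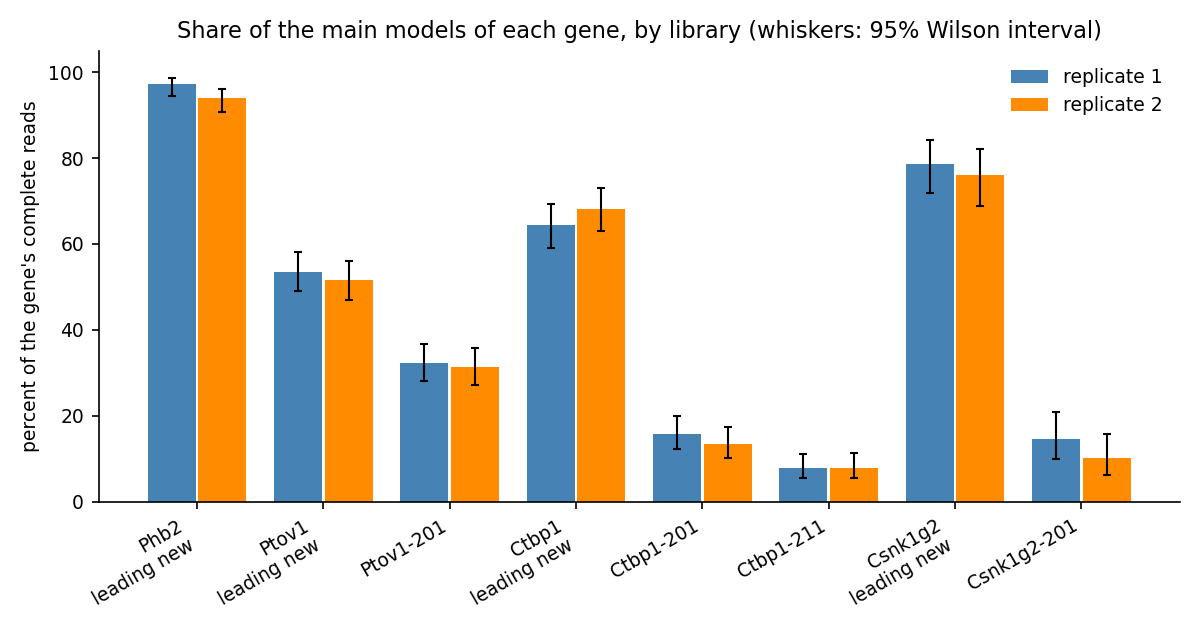
Bars give the percent of a gene's complete reads held by its leading new model and by its main annotated transcripts, with replicate 1 in blue and replicate 2 in orange, and whiskers give the 95% Wilson interval. Ptov1-201 sits at 32.3% and 31.3%, below the new model at 53.5% and 51.6%, and the annotated transcripts of Ctbp1 and Csnk1g2 stay under 16% in both libraries.

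Complete reads of Phb2 (ENSMUSG00000004264.17, chr6:124712336-124716950, plus strand) were assigned almost only to a 9-exon model without the 6-base exon. The annotated principal transcript, Phb2-201, has 10 exons and 299 codons, and it had 0 reads in both libraries. The 6-base exon lies in the coding sequence at chr6:124716425-124716430. The junction over it, an intron of 575 bases at chr6:124716031-124716605, is annotated in Phb2-205, a retained-intron transcript that had 0 and 1 reads.

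By their models, all 253 complete reads of replicate 1 and all 300 of replicate 2 that could show the choice skipped the exon. Incomplete reads skipped it as well, 7 of 7 and 14 of 14. Together 0 of 574 reads were assigned to a model with it, which allows up to 0.523% of such assignments. That bound does not cover bases that the reads held and the models lack. Without the exon the reading frame from the start of Phb2-201 runs for 891 bases, or 297 codons. The 2 codons lost leave the frame downstream unchanged.

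The next Phb2 model kept intron 4 (661 bases) and had 4 and 11 reads. Its frame closes after 160 codons, with the stop 1044 bases upstream of the last junction. Intron 4 was spliced in 249 of 254 complete reads of replicate 1 (98.0%) and 284 of 299 of replicate 2 (95.0%). Of the 12 Phb2 models, 10 had 1 read each, and the other internal exons of the leading model were present in all reads that spanned them.

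The absence of very short exons from the models was not limited to Phb2. Over all annotated principal transcripts, 11 internal exons of 1 to 9 bases had at least 20 reads on either choice, and 11 of 11 were at 0% inclusion, over 1676 reads. They belong to Itih3, Mpc1, Sept7, Ap2m1, Apbb1, Nsfl1c, Phb2, Tnni2, Col13a1, Psap and Relb. At 10 to 15 bases, 5 of 8 exons were at 0%, and the others were those of Dnm2 (46.4%), Abi1 (42.9%) and Sptan1 (45.0%).

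Among 317 exons of 16 to 30 bases, 286 (90.2%) were included in over 90% of reads, and among 22936 exons of 61 to 120 bases 98.4% were. This comparison and the genes named in it were chosen after their values were seen. The deposited tables hold transcript models and no read sequences. Whether the reads held the missing bases was therefore not tested, and the 297-codon frame is that of the model. Of the 60 genes led by a new model, 7 had a leading model that skipped an annotated exon under 10 bases, and Phb2 is 1 of them.

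**Figure D3:**
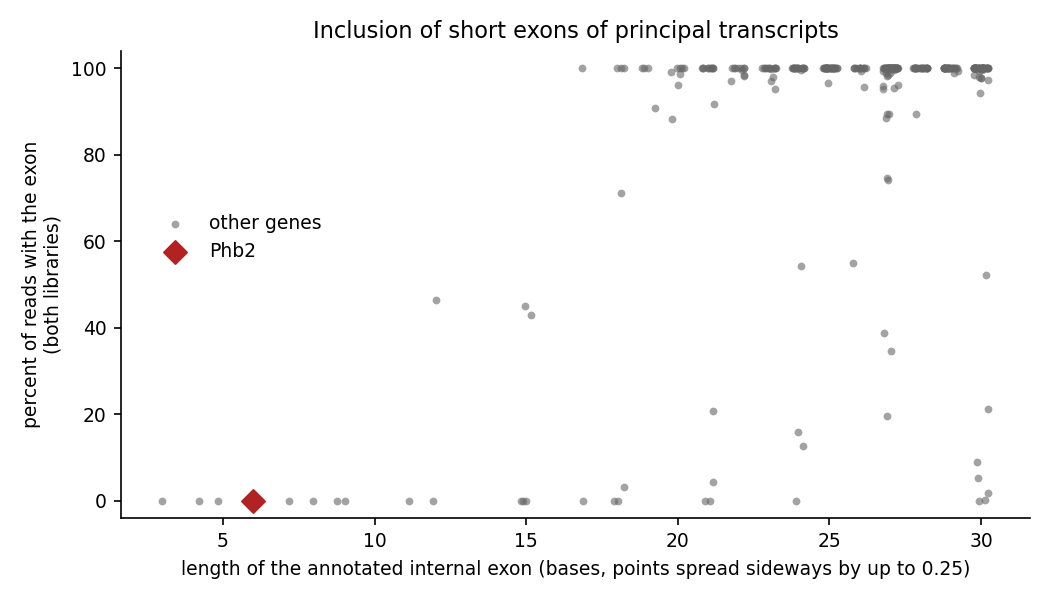
Each point is an internal exon of an annotated principal transcript of at most 30 bases with at least 20 reads, by its length and by the percent of reads of both libraries that included it. The Phb2 exon (red diamond, drawn over the points of 3 other 6-base exons) and every other exon of 9 bases or fewer sit at 0%, and most exons of 16 bases or more sit near 100%.

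Ptov1 (ENSMUSG00000038502.17, chr7:44863067-44869788, minus strand) was led by a 13-exon transcript equal to Ptov1-201 apart from 1 more intron. That intron, at chr7:44863195-44863378, is 184 bases long, begins with GT and ends with AG, and lies in the 3′ UTR. It is annotated in Ptov1-205, which is listed as a target of nonsense-mediated decay, and in Ptov1-209, a retained-intron transcript. Ptov1-205 had 0 reads and Ptov1-209 had 1.

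Ptov1-201 was the second model, with 150 and 141 reads, or 32.3% and 31.3% of complete reads. The coding sequence of both is the same 1248 bases, or 416 codons. They differ in where the last junction lies. In Ptov1-201 it lies 12 bases upstream of the end of the stop codon and in the leading model 54 bases downstream of it. Of 2305 coding genes led by a known model, 110 (4.77%) had a leading model with an intron downstream of the stop codon.

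Over all complete reads that showed the choice, the last intron was spliced in 281 of 463 in replicate 1, or 60.7% (56.2% to 65.0%), and 281 of 447 in replicate 2, or 62.9% (58.3% to 67.2%). In incomplete reads it was spliced in 8 of 37 (21.6%, 11.4% to 37.2%) and 22 of 62 (35.5%, 24.7% to 47.9%). The interval of the incomplete reads lay below that of the complete reads in each library. Of the 92 incomplete Ptov1 reads with an intron, 57 matched a stretch of the leading model, and 22 of them matched no annotated transcript.

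Retained introns set most other Ptov1 models apart. Of 80 Ptov1 models, 57 had 1 read, and 60 of the 79 besides the leading one kept at least 1 intron of the leading model, with 411 reads in all. Ptov1-201, which keeps the last intron within its annotated last exon, is 1 of those 60 and holds 291 of the 411 reads. Intron 7 (77 bases) was spliced in 94.4% and 91.5% of complete reads and intron 10 (650 bases) in 93.7% and 91.5%. The model that kept intron 7 alone had 7 and 13 reads and a frame of 312 codons, and the one that kept intron 10 alone had 5 and 9 reads and a frame of 452 codons. Every internal exon of the leading model was present in over 99% of the reads that spanned it, in both libraries.

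Ctbp1 (ENSMUSG00000037373.12, chr5:33247723-33274994, minus strand) was led by a 10-exon transcript that took exon 2 from Ctbp1-211 and the last acceptor from Ctbp1-201. With splice sites within 10 bases counted as 1 model, it merged with Ctbp1-211 into a known model at 75.3% of complete reads, and Ctbp1 was then no longer led by a new one. Ctbp1 is known for a long and a short form that differ at their amino terminus. Ctbp1-201, without exon 2, opens its frame in exon 1 and runs for 441 codons. Ctbp1-211, with exon 2, opens it in exon 2 and runs for 429 codons.

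From the start codon of Ctbp1-211 the leading model codes for 1290 bases, or 430 codons, 1 more than Ctbp1-211. From the start codon in exon 1 its frame closes after 16 codons, as it does in Ctbp1-211. The known transcripts were less frequent. Ctbp1-201 had 54 and 46 reads (15.7% and 13.4% of complete reads) and Ctbp1-211 had 27 and 27 (7.83% and 7.87%). A new model without exon 2 and with the downstream acceptor had 7 and 3 reads, and Ctbp1-206, which lacks exons 2 and 3, had 3 and 5. A model with a new donor site for intron 7 had 5 reads in replicate 1 and 0 in replicate 2.

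Exon 2 (chr5:33269442-33269634, 193 bases) was included in 271 of 341 complete reads of replicate 1, or 79.5% (74.9% to 83.4%), and 276 of 336 of replicate 2, or 82.1% (77.7% to 85.9%). The acceptor giving 3 more bases was used in 307 of 345, or 89.0% (85.2% to 91.9%), and 301 of 339, or 88.8% (85.0% to 91.7%). Incomplete reads, which reach only the 3′ choice, used it in 8 of 10 and 6 of 8. The leading model held 64.3% and 68.2% of the complete reads in replicates 1 and 2. Each of its choices was therefore bound to be the more frequent one at its own site in those reads.

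Long reads show both choices together. Of 674 complete reads, 483 had exon 2 and the longer last exon, 61 had exon 2 and the shorter one, 116 lacked exon 2 and had the longer one, and 14 lacked both. The longer last exon was in 88.8% of reads with exon 2 and 89.2% of those without it, an odds ratio of 0.96 (exact interval 0.48 to 1.80, counting error only). The share with both was 71.7%, beside 71.7% for the product of the separate shares. By library the odds ratio was 0.86 and 1.07.

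The annotation holds 384 acceptor pairs 3 bases apart with at least 20 reads. The longer exon took a median of 70.7% of their reads, and 256 pairs lay below Ctbp1. Both acceptors took over 10% in 238 of them.

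Csnk1g2 (ENSMUSG00000003345.16, chr10:80622838-80640749, plus strand) was led by a 12-exon transcript that combined the first exon of Csnk1g2-201 with a splice of Csnk1g2-202. That splice removes the 81-base segment at chr10:80638080-80638160, which Csnk1g2-201 keeps within a coding exon. The segment is 81 bases long, a multiple of 3, and 65.4% of its bases are G or C.

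Both annotated transcripts open their frame at the same start codon. The leading model codes for 1245 bases, or 415 codons, as Csnk1g2-202 does, while Csnk1g2-201 codes for 442. The protein frame of the leading model is thus annotated, and its first exon sets it apart from Csnk1g2-202. All 163 and 157 complete reads that showed a first intron used that of Csnk1g2-201. The first intron of Csnk1g2-202, the annotated principal transcript, was in 0 of 320 reads, which allows a share of up to 0.938%, and that transcript had 0 reads.

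The 81-base segment was spliced out in 137 of 163 complete reads of replicate 1, or 84.0% (77.7% to 88.9%), and 140 of 157 of replicate 2, or 89.2% (83.3% to 93.1%). The incomplete reads spliced it out in 11 of 11 and 2 of 2. Csnk1g2-201 had 24 and 16 reads, or 14.6% and 10.1% of complete reads. Every other intron of the leading model was spliced in 94.9% to 100% of complete reads in each library. Genomic reads numbered 16 and 19, or 8.08% and 10.1% of all reads of the gene, where they were 4.57% and 6.59% over all known genes.

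**Figure D4:**
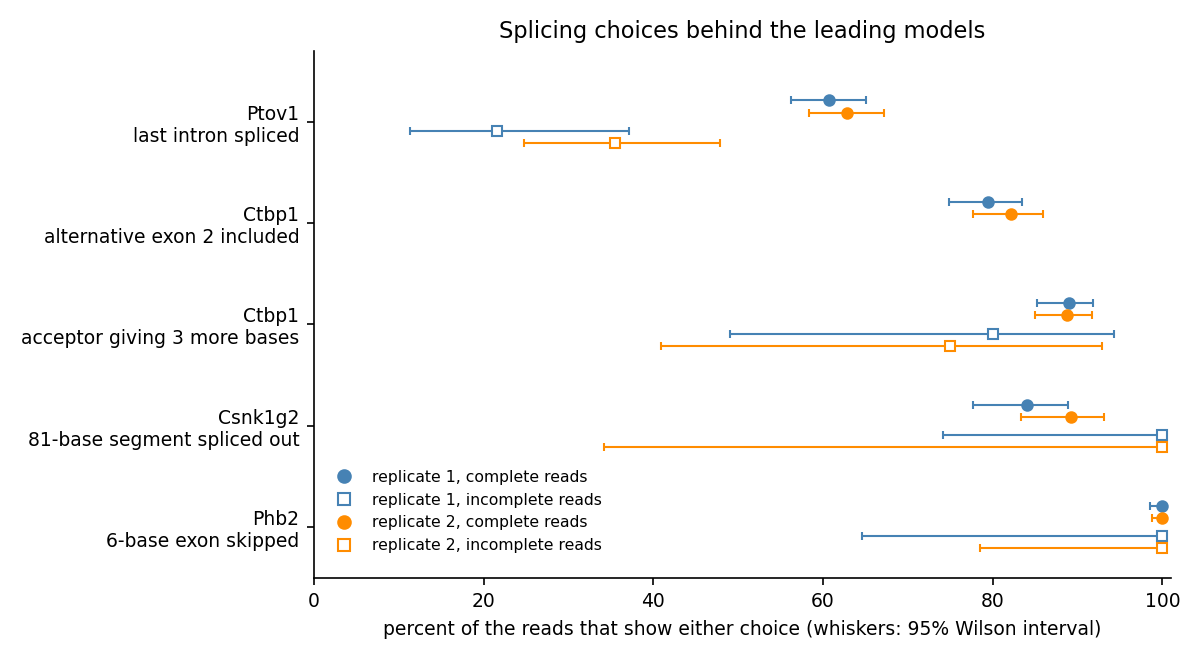
Percent of reads with each splice choice of the leading models, for complete reads (filled circles) and incomplete reads (open squares), with replicate 1 in blue, replicate 2 in orange and whiskers for the 95% Wilson interval. Complete reads give 60.7% and 62.9% for the last intron of Ptov1, with incomplete reads below them, and 100% for the skipped exon of Phb2. By the models, complete and incomplete reads together gave 0% inclusion for all 11 exons of 1 to 9 bases with at least 20 reads, Phb2 among them. Incomplete reads did not span exon 2 of Ctbp1.

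Against the other genes led by a new model, the 4 genes lie from the middle to the top. The leading share had a median of 50.5% over the 60 genes, against 92.0% over genes led by a known model, and 5 of the 60, Phb2 among them, were over 90%. In 50 of the 60 the same new model led in each library alone, and all 4 genes were among them. The best new model had 530 times the reads of the best known one in Phb2 (530 against 1), 6.25 times in Csnk1g2, 4.56 times in Ctbp1 and 1.65 times in Ptov1. The genes just inside the boundary were Dctn2 (195 reads of the new model against 189 of the known one) and Xpnpep1 (122 against 118). Just outside it were Smdt1 (131 against 135), Sipa1 (26 against 27) and Clu (102 against 107).

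The 5 other genes with the most reads of a leading new model, leading in both libraries, were Oaz1, Cdkn1c, Oaz2, Mrpl33 and Cyb561. Oaz1 and Oaz2, which encode antizymes that limit polyamine synthesis, had leading models with 1330 and 1426 reads (96.4% and 95.3%) and 275 and 237 reads (92.3% and 89.8%). These 2 models differ from their nearest annotated transcripts, Oaz1-201 and Oaz2-201, only by lacking 1 annotated gap between exons. Whether that gap is a spliced intron was not tested. Cdkn1c, an imprinted inhibitor of the cell cycle, had 873 and 876 reads (30.8% and 31.8%). Mrpl33, a protein of the mitochondrial ribosome, had 209 and 286 (86.0% and 85.6%), through a splice junction that is not annotated. Cyb561, a cytochrome of chromaffin granules, had 195 and 166 (57.2% and 52.2%). The Mrpl33 model is the one of these 5 with a new splice site.

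**Figure D5:**
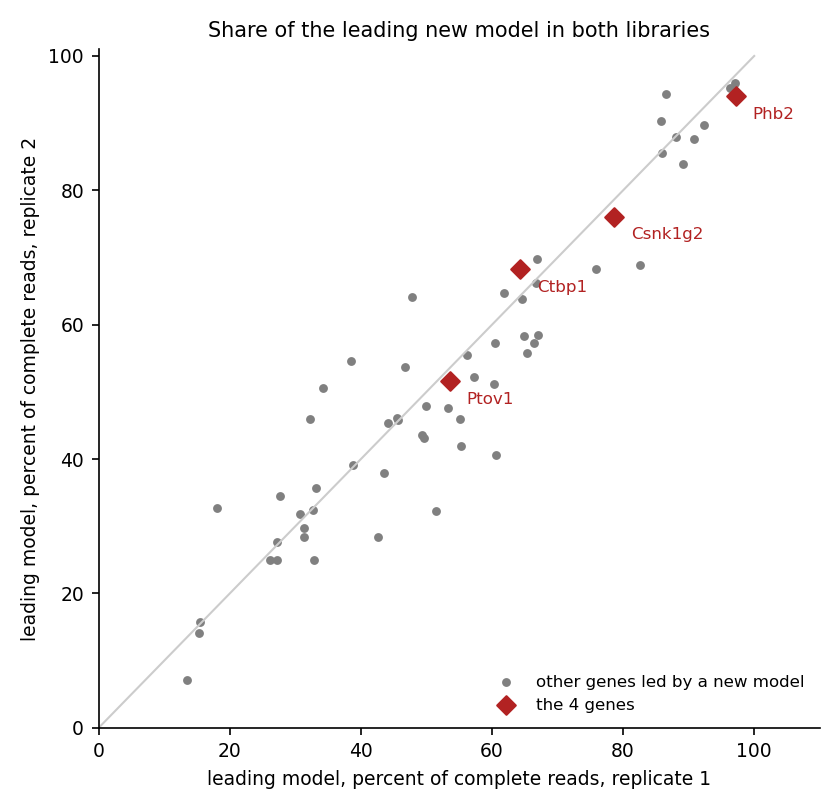
Percent of complete reads held by the leading new model in replicate 1 (x axis) and replicate 2 (y axis) for the 60 genes led by a new model, with the line of equal share. The 4 genes (red diamonds) lie close to the line, from Ptov1 at 53.5% and 51.6% to Phb2 at 97.2% and 94.0%.

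Partner genes of each pathway were compared between the libraries with the same test, against the background of 3.23% called. Of 9 tested prohibitin partners and inner membrane proteases, 0 were called. Phb, the partner of Phb2 in the ring complex, was at 492 ± 9.25 CPM and Stoml2, a related membrane scaffold, at 307 ± 41.1 CPM (SD, n = 2). Phb was led by the known transcript Phb-204 in 96.8% and 95.5% of complete reads. The median log2 ratio of this list was -0.27.

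Of 8 tested genes of the CtBP corepressor, 1 was called. Ctbp2, the paralog of Ctbp1, had 61 and 30 reads, or 88.6 and 37.0 CPM, a log2 ratio of -1.25 (two-sided Fisher's exact test, adjusted p = 0.00149). Hdac2 and Hdac1, the histone deacetylases of the complex, were at 146 ± 48.0 and 91.4 ± 22.8 CPM. The median log2 ratio of the list was -0.60.

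Of 9 tested genes of casein kinase 1 and the Wnt receptor, 0 were called, with a median log2 ratio of -0.15. Csnk1a1 and Csnk1d, other casein kinases 1, were at 232 ± 6.18 and 211 ± 36.6 CPM. Csnk1g3, a gamma paralog, had 22 and 18 reads, and Csnk1g1 had 2 and 1.

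Of 8 tested genes of Mediator and flotillin, 1 was called, with a median log2 ratio of -0.17. Flot1, a membrane raft protein, had 74 and 246 reads, or 108 and 303 CPM, a log2 ratio of 1.49 (two-sided Fisher's exact test, adjusted p = 4.97e-15). Of those, 1 read in replicate 1 and 173 in replicate 2 were genomic. With genomic models left out, Flot1 had 73 and 73 reads, a log2 ratio of -0.21 and an adjusted p of 0.737 by the same exact test, so the call was lost. Med25, which shares a domain with Ptov1, was at 318 ± 64.1 CPM. Of the genes of these 4 lists, 14 had enough complete reads for a leading share, and 14 of 14 were led by a known model. Over all 2440 genes with enough complete reads, only 2.46% were led by a new model.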

How the data were processed

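Long-read RNA sequencing of total RNA gave 2 libraries. The deposited counts are raw numbers of reads per transcript model, per the file headers, without normalization and for models with at least 1 read. Per the descriptions deposited with them, they rest on filtered alignments to mm10 with GENCODE M21, and the model classes are TALON tags per the file headers. Neither aligner nor filters are given in the sources used here. Intron chains were built from the exon positions of the deposited transcript annotations. Across libraries, known models were joined on the transcript identifier and new ones on the chain.

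CPM used all reads on mouse genes, spike-ins left out. Leading shares were computed for genes with 50 or more complete reads in each library, and levels tested for known genes with 20 or more over both. Libraries were compared with Fisher's exact test and Benjamini-Hochberg adjustment in Python 3.11.15 with scipy 1.17.1, tested on simulated counts. A count of 0 allows up to 3 reads. Reading frames were read from GENCODE M21 transcripts.

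The 4 genes and the gene lists were chosen with earlier results of these data known. Named were their models with at least 5 reads, list genes that were called, the 2 most abundant of each list, and the 5 other genes with the most reads of a leading new model. Csnk1g1, Csnk1g3 and the short exons were named after their values were seen. Alternatives were other read minimums, matching within 10 bases, classes counted, pseudocounts, and scaling by TMM (edgeR 4.0.16) and DESeq2 1.42.0. Amino acid sequences were not used here.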

Additional observations from a re-analysis of the deposited data

How the results depend on the processing

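Of 70 recomputed values, 57 kept their direction and their side of the threshold, or stayed within the spread between libraries. Each library alone gave leading shares of 94.0% to 97.2% for Phb2, 51.6% to 53.5% for Ptov1, 64.3% to 68.2% for Ctbp1 and 76.1% to 78.7% for Csnk1g2, and 55 to 61 genes led by a new model. With incomplete splice matches added to the reads, the mean share fell to 90.9% for Phb2, 47.5% for Ptov1 and 71.0% for Csnk1g2. With splice sites within 10 bases counted as 1 model it was 75.3% for Ctbp1, where the merged model holds Ctbp1-211 and is no longer new, and 79.9% for Csnk1g2. Without models of 1 read it was 56.0% for Ptov1 and 82.0% for Csnk1g2.

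Genes led by a new model numbered 163 of 4734 at 20 reads in each library and 26 of 1153 at 100 reads, against 60, and all 4 genes were led by one in each. Merging within 10 bases, an alternative chosen after seeing the data, left 50 genes and 3 of the 4. Calls for leading share numbered 4 at 100 reads and 65 with incomplete matches added, against 10. The difference in Csnk1g2 turned from -2.56 to 0.30 points with incomplete matches added, and was called in neither. Calls for gene level numbered 161 of 5250 genes at 50 reads, against 267 of 8276. The smaller counts at higher minimums come with fewer genes tested; the cause of the other changes was not tested.

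TMM and DESeq2 scaling moved the median log2 ratio of all genes from -0.10 to -0.04 and 0.01. None of the 4 genes was called under any level setting. No paired analysis was possible because there is 1 group. The shares rest on 159 to 465 complete reads a gene and library, and differences under 10 points could not be called by the rule used.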
